A study of Mus musculus with 24 samples.

Results

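Genes of cholesterol and fatty acid synthesis were followed at the mouse maternal-fetal interface (MFI) through gestation and after deletion of *C1qtnf6*. The set has 28 genes, taken by gene name from the 55401 genes of the count table, and all 28 were found and measured. By role, 8 encode enzymes from acetyl-CoA to squalene, 10 encode enzymes from squalene to cholesterol, 4 encode regulators or a sterol carrier, and 6 encode enzymes of fatty acid synthesis. The names were not chosen by a cutoff on measured values. Bulk polyA RNA was sequenced from the MFI of wild-type (WT) mice and of mice homozygous for a deletion of *C1qtnf6* (C1qtnf6-KO), which encodes the secreted protein CTRP6. Samples were taken at gd10.5, gd14.5, gd16.5 or gd19.5, where gd is the gestation day, with 3 libraries per genotype and stage, 24 in all. All animals were on a C57BL/6 background, and the KO mice came from a commercial line made by CRISPR-Cas9 deletion of the exons of the gene. The ages of the dams, the litters and any pooling are not given in the sources used here, so p-values measure the spread between libraries, part of which may be technical.

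Cholesterol is built from acetyl-CoA through the mevalonate pathway, which ends in squalene, and squalene is then closed into a ring and trimmed to cholesterol. The transcription factors encoded by *Srebf1* and *Srebf2* switch on genes of both pathways when membranes hold little sterol, and INSIG proteins hold them back when sterol is plentiful. In pregnancy, cholesterol serves new membranes and steroid hormones, and the mouse placenta and yolk sac both make it and take it up from maternal lipoproteins.

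The 250 bases before the transcription start are shown for 4 genes that fell by more than 1 on the log2 scale between stages, because sterol-regulated promoters carry binding motifs there. Sequences are from the RefSeq promoter table of GRCm38.p6, which holds 22 of the 28 genes, and are written on the strand of the gene. Capitals mark exact matches to TCACNCCAC, a form of the sterol regulatory element, and to the box CCAAT, on either strand (CCAAT reads ATTGG on the other). Other forms of the element were not searched, so a window without TCACNCCAC may still hold one. *Hmgcs1* is at chr13:119690101-119690350 (plus strand), *Mvk* at chr5:114444019-114444268 (plus), *Idi1* at chr13:8885356-8885605 (plus) and *Dhcr7* at chr7:143822917-143823166 (plus).
Hmgcs1: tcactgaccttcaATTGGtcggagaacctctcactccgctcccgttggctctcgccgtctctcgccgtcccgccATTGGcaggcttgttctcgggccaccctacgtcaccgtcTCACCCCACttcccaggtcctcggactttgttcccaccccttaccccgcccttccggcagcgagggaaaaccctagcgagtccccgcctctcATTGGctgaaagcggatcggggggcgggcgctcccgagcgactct
Mvk: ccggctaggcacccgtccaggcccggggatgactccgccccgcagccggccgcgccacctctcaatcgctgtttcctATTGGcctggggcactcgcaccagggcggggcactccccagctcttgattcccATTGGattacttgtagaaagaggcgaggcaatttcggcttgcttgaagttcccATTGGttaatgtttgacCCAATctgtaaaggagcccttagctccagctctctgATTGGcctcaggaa
Idi1: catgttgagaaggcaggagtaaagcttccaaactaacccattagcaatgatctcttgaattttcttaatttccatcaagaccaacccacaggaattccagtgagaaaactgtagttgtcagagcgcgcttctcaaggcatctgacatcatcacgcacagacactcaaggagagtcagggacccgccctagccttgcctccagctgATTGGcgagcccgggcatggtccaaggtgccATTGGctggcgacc
Dhcr7: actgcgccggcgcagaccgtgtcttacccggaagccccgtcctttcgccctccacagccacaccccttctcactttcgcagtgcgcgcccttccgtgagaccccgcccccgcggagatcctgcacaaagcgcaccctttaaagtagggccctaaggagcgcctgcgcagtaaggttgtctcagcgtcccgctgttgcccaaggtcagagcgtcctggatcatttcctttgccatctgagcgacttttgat
The *Hmgcs1* stretch holds TCACNCCAC and several CCAAT boxes, those of *Mvk* and *Idi1* hold CCAAT boxes without it, and that of *Dhcr7* holds neither string. Counted over the table's full windows, which run 50 bases past the start, CCAAT was found in 18 of the 22 genes (81.8%), against 37.4% of 32851 windows of that length. The GC box GGGCGG, also searched on both strands, was in 17 of 22 (77.3%), against 35.7%. TCACNCCAC was in 1 of 22, *Hmgcs1* (4.55%), against 1.24%. Matches were counted where they overlapped, as CCAAT and its reverse do in *Fasn*, and the *Acaca* window lies 65766 bases from the start in the count table. These letters describe the windows and say nothing of binding in the MFI.

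Total counts per library ran from 20975717 to 37383108, and the least abundant measurement in the set was 26 counts, for *Fdps*. Levels are given as CPM (counts scaled to a common library size), with TMM factors computed over the 24 libraries, and a count of 3 corresponds to 0.0773 to 0.149 CPM. *C1qtnf6* lay between 64.7 and 168 CPM in WT libraries and between 0.034 and 2.05 CPM in KO libraries. The tissue label was checked against marker sums: spongiotrophoblast and glycogen cell genes reached 24600 to 39300 CPM in WT libraries from gd14.5 on, and decidual stroma genes 3960 to 14100 CPM in all WT libraries. KO replicate 2 at gd10.5 and KO replicate 2 at gd16.5 stood apart from their groups in many of the 28 genes, so the KO counts and medians are given with and without them.

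In WT mice, nearly the whole set fell between gd10.5 and gd19.5. By the quasi-likelihood test of edgeR, with p-values adjusted across 18523 genes, 25 of the 28 were lower at gd19.5 (adjusted p under 0.05), where 32.7% of all genes tested were lower, and 0 were higher, where 32.2% were. Of these, 19 fell by more than 1 on the log2 scale, against 14.1% of all genes. The median log2 fold change of the set was -1.49, and the genes that did not pass were *Fdft1*, *Srebf1* and *Scd2*. Summed over the 18 enzymes of cholesterol synthesis, WT libraries held 944 to 999 CPM at gd10.5 and 347 to 360 CPM at gd19.5. The 6 fatty acid genes summed to 745 to 912 CPM at gd10.5 and 523 to 578 CPM at gd19.5. In bulk tissue, fewer cells of a type and less RNA per cell cannot be told apart. Over the same interval in WT, the sum of 6 proliferation genes went from 535 to 676 CPM down to 75.7 to 78.7 CPM, and that of 5 spongiotrophoblast and glycogen cell genes from 1300 to 1920 CPM up to 24600 to 32600 CPM. Decidual stroma genes summed to 6690 to 14100 CPM at gd10.5 and to 4830 to 6770 CPM at gd19.5, so the ranges overlapped. Most of the gd10.5 sum was *Prl8a2*, at 12600, 7890 and 5370 CPM, then 2280, 2260 and 3520 CPM at gd19.5. *Pgr*, *Hand2* and *Bmp2* of that list were also lower at gd19.5, whereas *Dcn* and *Cryab* were higher. The sum of 7 yolk sac endoderm genes at gd10.5 was 3930, 15.4 and 21.8 CPM in WT and 2390, 1280 and 3900 CPM in KO. At gd19.5 it was 140 to 314 CPM in WT and 146 to 222 CPM in KO. Yolk sac content thus varied between libraries and genotypes at gd10.5, and its part in the values of the set was not tested. Stage and these changes in composition cannot be told apart in this design.

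**Figure D1:**
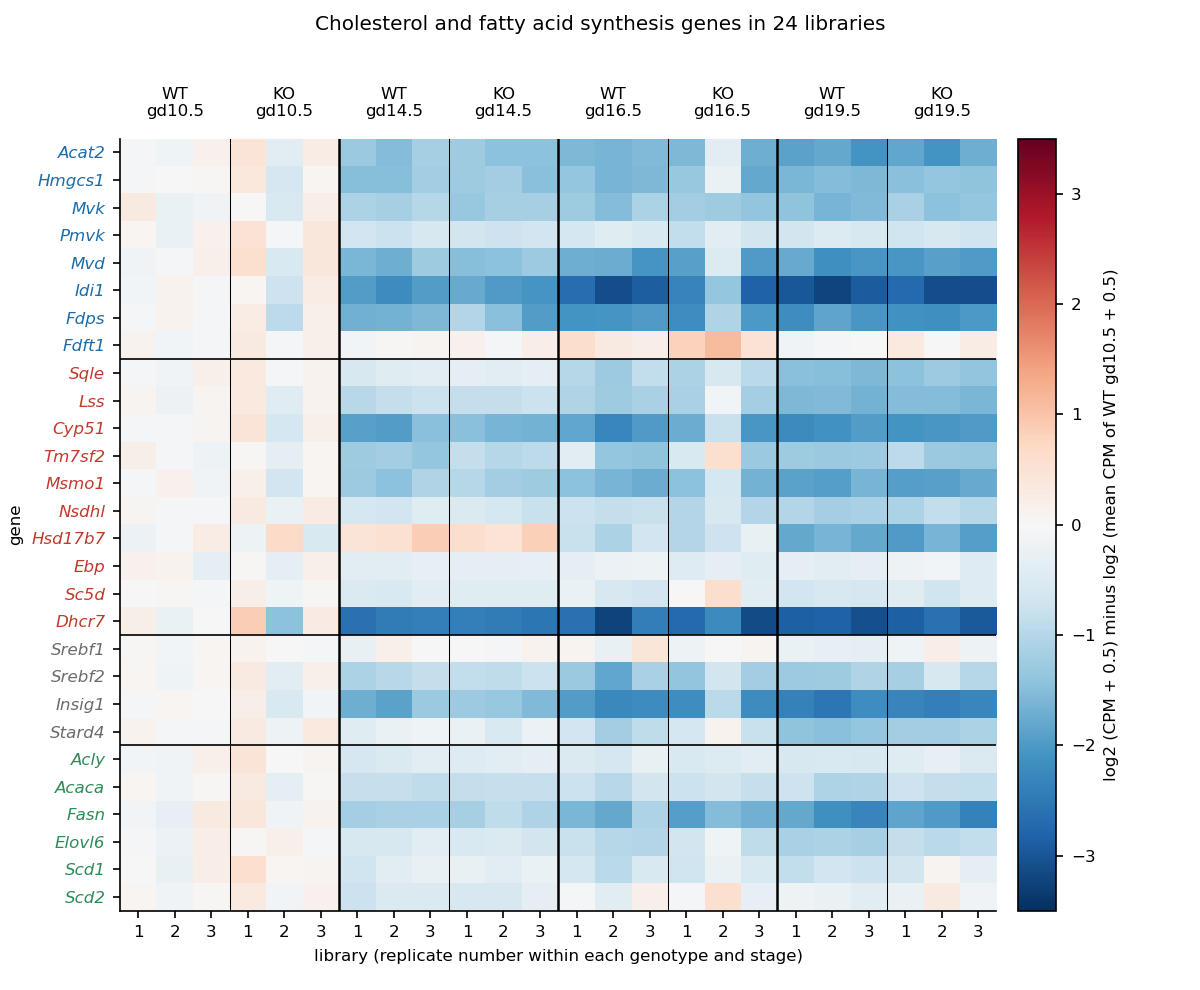
Color shows log2 (CPM + 0.5) of each gene (rows, grouped by role) minus the log2 of its WT gd10.5 mean, in each of the 24 libraries (columns, by stage and genotype). Most rows turn blue after gd10.5 in both genotypes, *Fdft1* is red at gd16.5, *Hsd17b7* is red at gd14.5, *Scd2* is blue at gd14.5, and *Srebf1* lies between -0.271 and 0.421 at gd14.5 and gd16.5; KO replicate 2 at gd16.5 is paler than its group.

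Among the enzymes from acetyl-CoA to squalene, 7 of 8 fell in WT between gd10.5 and gd19.5. *Idi1* (chr13:8885501-8892451, plus strand, GRCm38), the isomerase that makes the isoprene unit used for chain building, fell most of all 28 genes. Its levels in the 3 WT libraries were 19.3, 22.5 and 20 CPM on gd10.5, 4.92, 4.06 and 4.92 on gd14.5, 2.85, 1.94 and 2.38 on gd16.5, and 2.19, 1.79 and 2.29 on gd19.5. In KO they were 21.5, 12.2 and 24.7 CPM on gd10.5, 5.69, 4.84 and 4.55 on gd14.5, 3.68, 7.70 and 2.46 on gd16.5, and 2.71, 1.94 and 1.94 on gd19.5. Every library at gd10.5 was above every later library in both genotypes, and KO replicate 2 was the low one at gd10.5 and the high one at gd16.5. From gd10.5 to gd19.5 the log2 fold change was -3.29 (SE 0.157, adjusted p = 3.02e-09) in WT and -3.16 (SE 0.395, adjusted p = 5.03e-05) in KO. Near-identical stretches of other transcripts, *Gm13502* and overlapping genes on either strand included, cover 33.3% of the *Idi1* transcript. *Gm48574* on the other strand shares 9.22% of the *Idi1* exon bases.

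*Fdps* (chr3:89093588-89101959, minus strand) makes farnesyl diphosphate, the branch point toward squalene and toward lipid tails on proteins. WT libraries held 7.22, 8.26 and 7.19 CPM on gd10.5, 2.00, 2.04 and 2.23 on gd14.5, 1.40, 1.41 and 1.56 on gd16.5, and 1.27, 1.75 and 1.46 on gd19.5. KO libraries held 9.18, 3.77 and 8.58 CPM on gd10.5, 3.43, 2.42 and 1.57 on gd14.5, 1.29, 3.42 and 1.5 on gd16.5, and 1.35, 1.33 and 1.5 on gd19.5. The WT stages gd10.5 and gd14.5 did not overlap, whereas gd16.5 and gd19.5 did. The change to gd19.5 was -2.32 on the log2 scale in WT (SE 0.153, adjusted p = 4.21e-08) and -2.37 in KO (SE 0.437, adjusted p = 0.000742). Near-identical stretches of other transcripts, overlapping genes included, cover 91.4% of the *Fdps* transcript, and *Gm3571* is 98.9% identical over its aligned stretch. *Gm43738* on the same strand shares 26.7% of the *Fdps* exon bases, so the *Fdps* counts are uncertain.

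*Mvd* (chr8:122433601-122443422, minus strand) decarboxylates mevalonate diphosphate to isopentenyl diphosphate. It was at 16.9, 17.5 and 20.9 CPM in WT on gd10.5, 5.71, 5.28 and 7.44 on gd14.5, 5.33, 5.21 and 4.04 on gd16.5, and 5.10, 3.81 and 4.09 on gd19.5. The KO values were 27.3, 12.7 and 24.3 CPM on gd10.5, 6.29, 6.52 and 7.35 on gd14.5, 4.58, 13 and 4.28 on gd16.5, and 4.15, 4.53 and 4.32 on gd19.5. In KO, replicate 2 of gd16.5 lay above replicate 2 of gd10.5, so these stages overlapped. The log2 fold change to gd19.5 was -2.07 in WT (SE 0.167, adjusted p = 2.34e-07) and -2.31 in KO (SE 0.402, adjusted p = 0.000499).

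The other enzymes of this stretch fell less. In WT between gd10.5 and gd19.5, *Acat2*, which joins acetyl-CoA units, changed by -2.02 (SE 0.131, adjusted p = 3.76e-08), the kinase *Mvk* by -1.56 (SE 0.154, adjusted p = 1.47e-06) and *Hmgcs1*, the HMG-CoA synthase, by -1.55 (SE 0.0888, adjusted p = 1.23e-08). *Pmvk*, the following kinase, fell by 0.57 (SE 0.119, adjusted p = 0.000983). *Gm48342*, on the other strand, shares 12.1% of the exon bases of *Hmgcs1*. *Acat3*, whose transcript is 97.7% identical to *Acat2* over the aligned part, had group means of 0.109 to 0.497 CPM, against 4.07 to 18.6 CPM for *Acat2*.

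*Fdft1* (chr14:63145150-63179578, minus strand), squalene synthase and the first enzyme committed to sterols, did not pass between gd10.5 and gd19.5. WT libraries held 65.5, 56.1 and 57.6 CPM on gd10.5, 55.7, 61.8 and 63.7 on gd14.5, 91.3, 74.3 and 69.9 on gd16.5, and 55, 57 and 60.6 on gd19.5. KO libraries held 73.8, 57.3 and 67.2 CPM on gd10.5, 66.4, 58.5 and 70.7 on gd14.5, 104, 129 and 85.1 on gd16.5, and 75.7, 58.9 and 71 on gd19.5. In both genotypes every gd16.5 library was above every library of the other stages. From gd14.5 to gd16.5 it rose by 0.38 (SE 0.1, adjusted p = 0.0155) in WT and by 0.71 (SE 0.154, adjusted p = 0.0109) in KO, and over the whole interval the log2 fold change was -0.04 in WT (95% interval -0.26 to 0.18) and 0.05 in KO (95% interval -0.29 to 0.39). Exons of *Ctsb*, a cathepsin on the other strand, share 18.3% of the exon bases of *Fdft1*, and *Ctsb* means were 1120, 1730, 2250 and 1900 CPM at the successive WT stages. Counting without regard to strand was used, and whether reads from the shared bases raised or lowered the *Fdft1* values was not tested. Near-identical stretches of other transcripts, *Gm6781* and overlapping genes on either strand included, cover 54.7% of the *Fdft1* transcript.

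**Figure D2:**
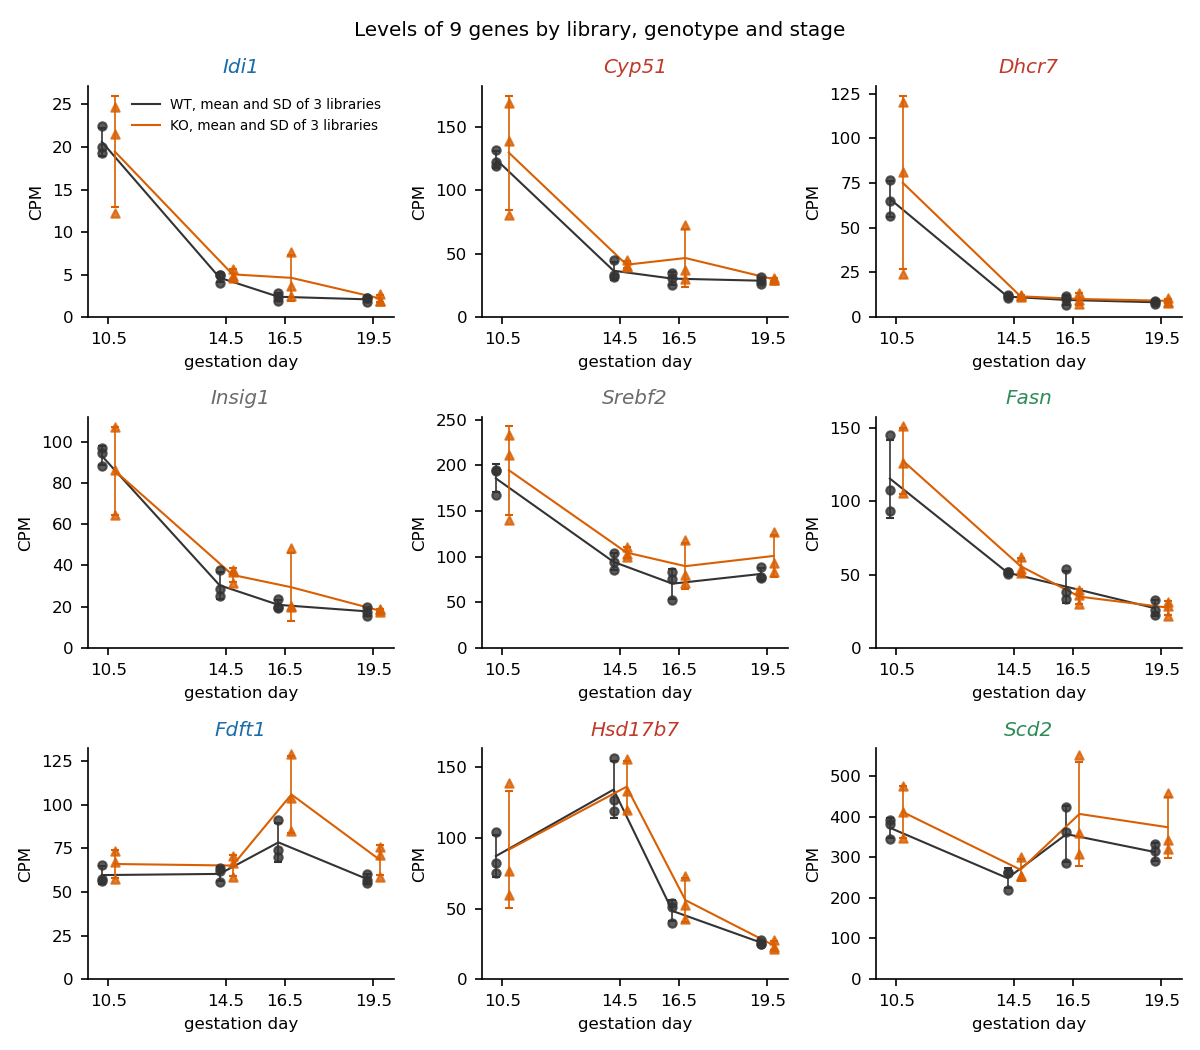
Levels in CPM (vertical axes, linear, from 0) against gestation day for 9 of the genes; points are single libraries, lines join group means and bars are SD of 3 libraries, for WT (black) and KO (orange). *Idi1*, *Cyp51*, *Dhcr7*, *Insig1*, *Srebf2* and *Fasn* drop after gd10.5, *Fdft1* is highest at gd16.5, *Hsd17b7* is highest at gd14.5, and *Scd2* is lowest at gd14.5.

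From squalene to cholesterol, all 10 enzymes fell in WT between gd10.5 and gd19.5, 8 of them by more than 1 on the log2 scale. *Dhcr7* (chr7:143823145-143848410, plus strand), the reductase that finishes cholesterol from its last precursor, fell most. In WT it was at 76.8, 56.5 and 64.9 CPM on gd10.5, 10.4, 11.8 and 12.1 on gd14.5, 10.3, 6.54 and 11.9 on gd16.5, and 8.60, 8.85 and 7.46 on gd19.5. In KO it was at 120, 24 and 81.2 CPM on gd10.5, 12.1, 11.6 and 11.1 on gd14.5, 9.61, 13.6 and 7.16 on gd16.5, and 9.08 ± 1.22 (mean ± SD, n = 3) on gd19.5. Most of its fall was over by gd14.5, at -2.53 on the log2 scale in WT, and KO replicate 2 at gd10.5 was far below the other 5 libraries of that stage yet above all later ones. The log2 fold change to gd19.5 was -2.98 in WT (SE 0.181, adjusted p = 2.11e-08), 7.86-fold lower, and -3.05 in KO (SE 0.461, adjusted p = 0.000187).

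*Cyp51* (chr5:4081145-4104746, minus strand) demethylates lanosterol. Its WT levels were 122, 119 and 132 CPM on gd10.5, 33.1, 31.8 and 44.6 on gd14.5, 34.9, 25.2 and 30.8 on gd16.5, and 26.2, 28.4 and 31.4 on gd19.5. Its KO levels were 169, 80.6 and 139 CPM on gd10.5, 44.6, 40 and 39.2 on gd14.5, 37.1, 72.3 and 30.1 on gd16.5, and 28.9, 29.6 and 30.9 on gd19.5. No library after gd10.5 reached the gd10.5 range in either genotype. From gd10.5 to gd19.5 it changed by -2.10 in WT (SE 0.138, adjusted p = 4.10e-08) and by -2.13 in KO (SE 0.317, adjusted p = 0.000168).

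*Msmo1* (chr8:64718139-64733792, minus strand) is the methyl sterol oxidase that begins removal of the methyl groups. WT libraries held 129, 145 and 121 CPM on gd10.5, 54.1, 48.8 and 63 on gd14.5, 48.7, 42.5 and 39.1 on gd16.5, and 35.7, 34.3 and 42.7 on gd19.5. KO libraries held 149, 82.3 and 139 CPM on gd10.5, 65.4, 56.7 and 55.2 on gd14.5, 48.1, 85.9 and 41.7 on gd16.5, and 34.2, 35 and 38.2 on gd19.5. The KO stages gd10.5 and gd16.5 overlapped through replicate 2 of each. The change to gd19.5 was -1.80 in WT (SE 0.120, adjusted p = 4.55e-08) and -1.79 in KO (SE 0.268, adjusted p = 0.000177).

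*Hsd17b7* (chr1:169949535-169969241, minus strand), the keto-sterol reductase of the same demethylation complex and also known to make estradiol from estrone, was the 1 gene of the set that rose between gd10.5 and gd14.5. WT libraries held 75.3, 82.2 and 104 CPM on gd10.5, 119, 127 and 157 on gd14.5, 50.9, 39.9 and 54.1 on gd16.5, and 24.8, 28 and 25 on gd19.5. KO libraries held 76.4, 139 and 59.9 CPM on gd10.5, 133, 120 and 156 on gd14.5, 42.5, 52.5 and 72.9 on gd16.5, and 21.5, 27.7 and 22.6 on gd19.5. In WT, gd14.5 was above every other stage without overlap, and KO replicate 2 of gd10.5, low in most other genes of the set, was the high library for this one. The successive WT changes were 0.63 (SE 0.138, adjusted p = 0.00168), -1.47 (SE 0.141, adjusted p = 2.86e-05) and -0.89 (SE 0.144, adjusted p = 0.00358) on the log2 scale. In KO the first change was 0.57 (SE 0.278, adjusted p = 0.116), which did not pass, and the fall to gd16.5 was -1.28 (SE 0.282, adjusted p = 0.0115).

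The remaining enzymes of this stretch changed in WT from gd10.5 to gd19.5 by -0.34 to -1.60 on the log2 scale. *Lss*, which closes squalene epoxide into lanosterol, changed by -1.60 (SE 0.101, adjusted p = 2.72e-08) and *Sqle*, the epoxidase before it and a control point of the pathway, by -1.51 (SE 0.104, adjusted p = 6.29e-08). *Tm7sf2*, a sterol reductase, changed by -1.48 (SE 0.269, adjusted p = 0.000328), with 12.1% of its exon bases shared with *Vps51* on the same strand. *Nsdhl*, the sterol dehydrogenase of the demethylation complex, changed by -1.14 (SE 0.0939, adjusted p = 2.84e-07), the sterol desaturase *Sc5d* by -0.60 (SE 0.0963, adjusted p = 0.000121) and the sterol isomerase *Ebp* by -0.34 (SE 0.110, adjusted p = 0.0160). *Sqle* and *Lss* were the genes of the set that fell at each of the 3 steps in WT. For *Sqle* the log2 fold changes were -0.46, -0.57 and -0.48 (adjusted p = 0.00175, 0.0018 and 0.0159), and for *Lss* -0.85, -0.30 and -0.45 (adjusted p = 9.92e-06, 0.0453 and 0.0200). The WT means of *Sqle* were 119 ± 13.7, 86.3 ± 5.42, 58 ± 8.02 and 41.5 ± 1.69 CPM (SD, n = 3) at the successive stages.

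Of the regulators and the sterol carrier, 3 of 4 fell in WT between gd10.5 and gd19.5. *Insig1* (chr5:28071363-28078662, plus strand) holds the SREBP proteins in the endoplasmic reticulum and is itself switched on by them. WT libraries held 88, 96.9 and 94.3 CPM on gd10.5, 28.4, 25.2 and 37.7 on gd14.5, 23.8, 19.2 and 19.8 on gd16.5, and 17.7, 15.6 and 20.1 on gd19.5. KO libraries held 107, 64.4 and 86.3 CPM on gd10.5, 37.9, 36.7 and 31.7 on gd14.5, 20.3, 48.4 and 19.7 on gd16.5, and 18.3, 17.3 and 18.8 on gd19.5. All gd10.5 libraries were above all later ones, and KO replicate 2 of gd16.5 was above all 6 libraries of gd14.5. The change to gd19.5 was -2.37 in WT (SE 0.142, adjusted p = 1.75e-08) and -2.25 in KO (SE 0.313, adjusted p = 0.000104).

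*Srebf2* (chr15:82147181-82205379, plus strand) encodes the factor that mainly drives sterol genes. Its WT levels were 195, 168 and 194 CPM on gd10.5, 85.2, 93.7 and 104 on gd14.5, 75.6, 52.1 and 83.7 on gd16.5, and 76.6, 78.2 and 88.5 on gd19.5. Its KO levels were 233, 140 and 211 CPM on gd10.5, 103, 99.6 and 111 on gd14.5, 70.7, 118 and 80.2 on gd16.5, and 82.8, 127 and 92.7 on gd19.5. In WT, gd14.5 lay above gd16.5 without overlap while gd19.5 overlapped with both, and in KO the 3 later stages overlapped. From gd10.5 to gd19.5 it changed by -1.18 in WT (SE 0.143, adjusted p = 9.64e-06) and by -0.95 in KO (SE 0.227, adjusted p = 0.00381).

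*Stard4*, a soluble carrier that moves cholesterol between membranes, fell mostly after gd14.5. WT libraries held 74.5, 65.2 and 65.9 CPM on gd10.5, 51, 57.8 and 61.9 on gd14.5, 42.5, 29.2 and 36.8 on gd16.5, and 25.4, 24.7 and 26.5 on gd19.5. KO libraries held 84.6, 60.7 and 86.4 CPM on gd10.5, 58.5, 47.1 and 59.8 on gd14.5, 44.5, 74.3 and 40.1 on gd16.5, and 29.2, 29.1 and 31.7 on gd19.5. In WT each stage lay below the one before it without overlap, whereas KO replicate 2 of gd16.5 was above all gd14.5 libraries. The WT steps were -0.26 (adjusted p = 0.0650), -0.65 (adjusted p = 0.00182) and -0.50 (adjusted p = 0.0252), and the whole change -1.41 in WT (SE 0.118, adjusted p = 3.53e-07) and -1.37 in KO (SE 0.216, adjusted p = 0.000257). *Srebf1*, whose products mainly drive fatty acid genes, had WT means between 56.9 and 75 CPM at the 4 stages, and its change of -0.27 from gd10.5 to gd19.5 in WT (95% interval -0.58 to 0.05) did not pass (adjusted p = 0.121).

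Of the fatty acid genes, 5 of 6 fell in WT between gd10.5 and gd19.5, 2 of them by more than 1 on the log2 scale. *Fasn* (chr11:120805846-120824547, minus strand) encodes the synthase that assembles palmitate. WT libraries held 108, 93.5 and 145 CPM on gd10.5, 50.2, 52 and 52 on gd14.5, 38, 33.2 and 54.2 on gd16.5, and 33.1, 25.7 and 22.8 on gd19.5. KO libraries held 151, 106 and 126 CPM on gd10.5, 51.3, 62.3 and 53.9 on gd14.5, 29.7, 39.6 and 35.9 on gd16.5, and 31.5, 29 and 22.2 on gd19.5. All gd10.5 libraries were above all later ones, and KO replicate 2 was the lowest of its group at gd10.5 and the highest at gd16.5. The change to gd19.5 was -2.07 in WT (SE 0.194, adjusted p = 9.61e-07) and -2.22 in KO (SE 0.168, adjusted p = 1.89e-06).

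*Elovl6* (chr3:129532355-129638495, plus strand) lengthens palmitate to stearate. It was at 35.9, 33.1 and 44.6 CPM in WT on gd10.5, 25.6, 25.7 and 29.3 on gd14.5, 21.9, 18.6 and 18.2 on gd16.5, and 17.1, 17.2 and 16.8 on gd19.5. In KO it was at 39.2, 42.9 and 36.4 CPM on gd10.5, 26.2, 26.3 and 24 on gd14.5, 23.9, 34.2 and 20.1 on gd16.5, and 21, 19.3 and 20.6 on gd19.5. WT stages did not overlap with each other, and at gd19.5 every KO library was above every WT library. It changed by -1.13 in WT (SE 0.112, adjusted p = 1.55e-06) and by -0.97 in KO (SE 0.158, adjusted p = 0.000323) over the whole interval.

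*Acaca* (chr11:84129672-84401651, plus strand) makes malonyl-CoA, the substrate of fatty acid synthase. WT libraries held 25.6, 22.5 and 25 CPM on gd10.5, 13.8, 13.8 and 12.9 on gd14.5, 14.1, 12.2 and 15.4 on gd16.5, and 14.6, 11.2 and 11.5 on gd19.5. KO libraries held 30.3, 19.1 and 24.8 CPM on gd10.5, 13.5, 13.7 and 13.7 on gd14.5, 14.3, 15.6 and 13.6 on gd16.5, and 14.6, 13.4 and 13.1 on gd19.5. All gd10.5 libraries were above all others, and the 3 later stages overlapped. The change to gd19.5 was -0.96 in WT (SE 0.116, adjusted p = 1.00e-05) and -0.86 in KO (SE 0.140, adjusted p = 0.000320). A copy, *Gm5182*, is 99.2% identical to *Acaca* and covers 64.3% of its transcript.

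*Acly*, which supplies acetyl-CoA from citrate, changed in WT by -0.54 from gd10.5 to gd19.5 (SE 0.1, adjusted p = 0.000398), and the desaturase *Scd1* by -0.75 (SE 0.141, adjusted p = 0.000435). *Scd2*, the related desaturase that makes oleate in fetal and many other tissues, had 391, 344 and 382 CPM in WT on gd10.5, 220, 261 and 264 on gd14.5, 361, 285 and 424 on gd16.5, and 332, 316 and 290 on gd19.5. It was lowest at gd14.5, where WT libraries did not overlap with other stages. It fell by 0.58 to gd14.5 (SE 0.126, adjusted p = 0.0017), rose by 0.53 to gd16.5 (SE 0.126, adjusted p = 0.00999), and its net change of -0.24 (95% interval -0.51 to 0.04) did not pass (adjusted p = 0.114). *Scd1* is 95.5% identical to *Scd2* over 623 aligned bases, and near-identical stretches of other genes together cover 15.9% of the *Scd2* transcript.

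Per exon length, in WT libraries at gd10.5, *Scd2* was the most abundant gene of the set at 68.2 ± 4.50 FPKM (CPM per kilobase of exon, SD, n = 3), then *Acly* at 41.8 ± 4.81, *Hmgcs1* at 30.8, *Insig1* at 30.1 and *Cyp51* at 28.1. *Hmgcs1* (SD 0.875) and *Insig1* (SD 1.48) differed by less than the SD of *Insig1*, and the ranges of the mean ± SD of *Insig1* and *Cyp51* (SD 1.61) overlapped. At the low end were *Acaca* at 1.43 and *Tm7sf2* at 1.12 FPKM. At gd19.5 the order in WT began with *Scd2* at 57.2 ± 3.92 and *Acly* at 28.5 ± 0.342 FPKM, followed by *Fdft1* at 14 and *Srebf2* at 11.3. The length used is that of all annotated exons of a gene. It is 6144 bases for *Msmo1* and 4403 for *Tm7sf2*, whose longest coding transcripts have 2044 and 1498, but 5464 against 5455 for *Scd2*. The order between genes therefore depends on the length chosen, and other lengths were not tested.

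Most of the change fell in the first interval. Between gd10.5 and gd14.5 in WT, 24 genes fell (28.3% of all genes tested) and 1, *Hsd17b7*, rose (27.7%), with a median log2 fold change of -0.85. Between gd14.5 and gd16.5, 8 fell (9.91%) and 2, *Fdft1* and *Scd2*, rose (12.5%), with a median of -0.26. Between gd16.5 and gd19.5, 6 fell (4.81%) and 0 rose (3.16%), with a median of -0.20. These small later counts moved when a library was left out. The 10 calls of the middle interval became 6 without WT gd14.5 replicate 1 or replicate 3, and the 4153 of all genes became 2554 or 2753. The 6 calls of the last interval became 2 without WT gd16.5 replicate 1 or 3 or WT gd19.5 replicate 1 or 3, and 1 without WT gd19.5 replicate 2. In these fits of the last interval the median of the set was -0.14 to -0.23. Calls over all genes were 544 to 1058 in place of 1476.

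The KO mice were fitted apart, on their own 12 libraries. From gd10.5 to gd19.5, 24 of 28 genes fell, where 30% of all genes tested were lower, and 0 rose (28.4% of all genes), with 17 falling by more than 1 on the log2 scale (14% of all genes) and a median of -1.33. The genes that did not pass were *Fdft1*, *Srebf1*, *Scd2* and *Ebp*. By interval, 21 fell to gd14.5 (24.1%) and 0 rose (22.1%), 3 fell to gd16.5 (8.1%), which were *Sqle*, *Hsd17b7* and *Fasn*, and *Fdft1* rose (9.37%). Between gd16.5 and gd19.5, 0 genes passed in edgeR (1.24% of all genes passed in either direction) and 6 passed, all lower, in DESeq2 (6.47% of all genes). Without both KO libraries that stood apart, the fall to gd19.5 had 25 genes and a median of -1.49. The first interval then had 25 lower and 1 higher. The middle interval had 10 lower and 1 higher, with 3907 of all genes passing in place of 3226. The last had 2 lower, with 612 of all genes passing in place of 229. The middle count was 1 without KO gd14.5 replicate 2 (1389 of all genes) or KO gd16.5 replicate 1 (1589). The last was 5 without KO gd10.5 replicate 2 (1640 of all genes), 1 without KO gd10.5 replicate 3 (471) and 4 without KO gd16.5 replicate 3 (362). The stage profile was tested against genotype by the interaction over 24 libraries. In edgeR, 0 of 28 genes passed (0% of 19299 genes, smallest adjusted p in the set 0.698). DESeq2 also called 0 of the 28, where it called 34 of all genes. By edgeR, 0 of the 28 had an unadjusted p under 0.05 (7.23% of all genes).

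**Figure D3:**
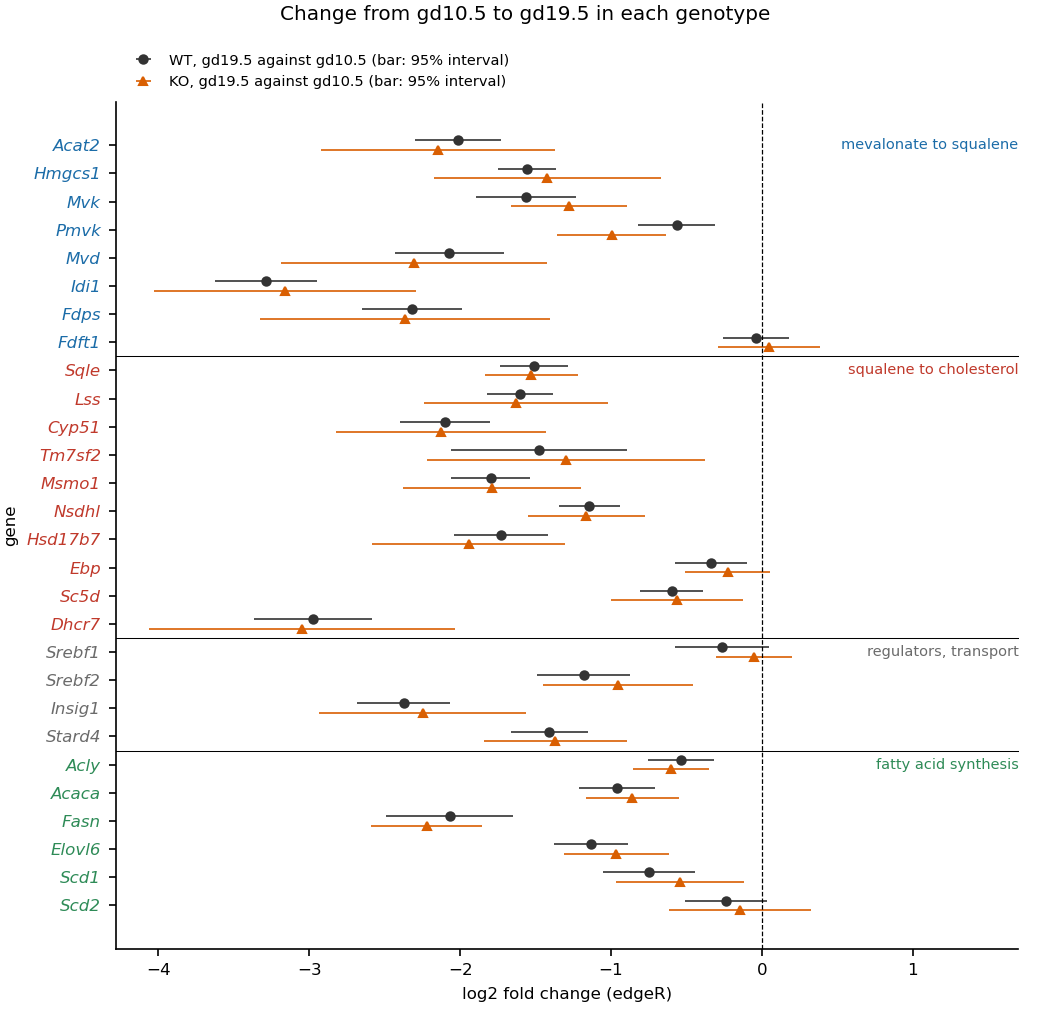
Log2 fold change (edgeR) from gd10.5 to gd19.5 for each of the 28 genes, grouped by role, in WT (black circles) and KO (orange triangles), with 95% intervals. The WT and KO values lie close together for each gene, from -3.29 for *Idi1* in WT to near 0 for *Fdft1*, and the KO intervals are mostly wider.

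Other genes of sterol and lipid handling, listed without regard to their direction, were measured for 35 of 36 names. In WT from gd10.5 to gd19.5, 12 were lower and 11 higher, beside 32.7% and 32.2% of all genes. Among the lower genes were *Scarb1* (-3.22, adjusted p = 1.73e-09), a receptor for high-density lipoprotein, the sterol-binding *Tmem97* (-1.61, adjusted p = 1.33e-06) and the desaturase *Fads1* (-1.19, adjusted p = 1.34e-06). Among the higher were *Abcg1* (3.53, adjusted p = 1.17e-09) and *Abca1* (0.68, adjusted p = 0.00112), which export cholesterol, *Mylip* (0.96, adjusted p = 5.43e-05), a ubiquitin ligase, and the lipogenic genes *Thrsp* (2.88), *Acacb* (1.22) and *Lpin1* (1.08). In KO, 10 were lower and 12 higher, beside 30% and 28.4% of all genes, with *Scarb1* at -3.48 and *Abcg1* at 3.75. None of the 35 passed in a KO against WT comparison by edgeR, with 1, 3, 3 and 6 at an unadjusted p under 0.05 at the successive stages, beside 0.801%, 6.78%, 11.1% and 13.5% of all genes.

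The 2 KO libraries that stood apart did so across the set and in opposite directions. KO replicate 2 at gd16.5 was the highest of its group for 24 of the 28 genes and for 34.1% of all genes, and its median log2 ratio to the mean of the other 2 libraries was 0.66. It held 771 CPM of the cholesterol enzymes, against 457 to 485 CPM in the other KO libraries of that stage and 402 to 482 CPM in WT. The rise was larger for enzymes up to squalene, with a median of 1.12, than for fatty acid genes, with 0.33, and *Dhcr7* was at 13.6 CPM against 9.61 and 7.16. KO replicate 2 at gd10.5 was the lowest of its group for 25 of 28 genes and for 38.2% of all genes, with a median log2 ratio of -0.52, and *Dhcr7* was at 24 CPM against 120 and 81.2. Within groups, the median SD of log2 CPM over the set was 0.412 at KO gd16.5 and 0.322 at KO gd10.5, against 0.0978 to 0.202 in the other groups and 0.102 to 0.212 over all genes.

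Marker lists moved with both libraries. The sum of 7 yolk sac endoderm genes was 22100 CPM in KO gd16.5 replicate 2, with *Afp* at 14900 CPM, while KO replicate 1 held 7810, WT replicate 1 held 8180 and the other gd16.5 libraries 85.9 to 196 CPM. Of 6 adipocyte genes, *Cidec* alone was at 6.22 CPM in that library and at most 2.14 CPM in any other, while *Adipoq* was at most 0.133, *Lep* 0.0552 and *Plin1* 0.0398 CPM, and *Cfd* had 0 counts in all 24 libraries. KO gd10.5 replicate 2 held 11700 CPM of spongiotrophoblast and glycogen cell genes, against 723 to 1920 CPM in the other gd10.5 libraries, and 226 CPM of NK cell genes, against 381 to 576 CPM. Y-linked transcripts summed to 71 CPM in it, and to at most 0.311 CPM in the other libraries of that stage. At gd16.5 the Y-linked sums of replicates 1, 2 and 3 were 194, 188 and 1.14 CPM in KO and 89.1, 0.663 and 0.486 CPM in WT. The part of the listed cell types, or of cells with a Y chromosome, in the values of the set was not tested.

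**Figure D4:**
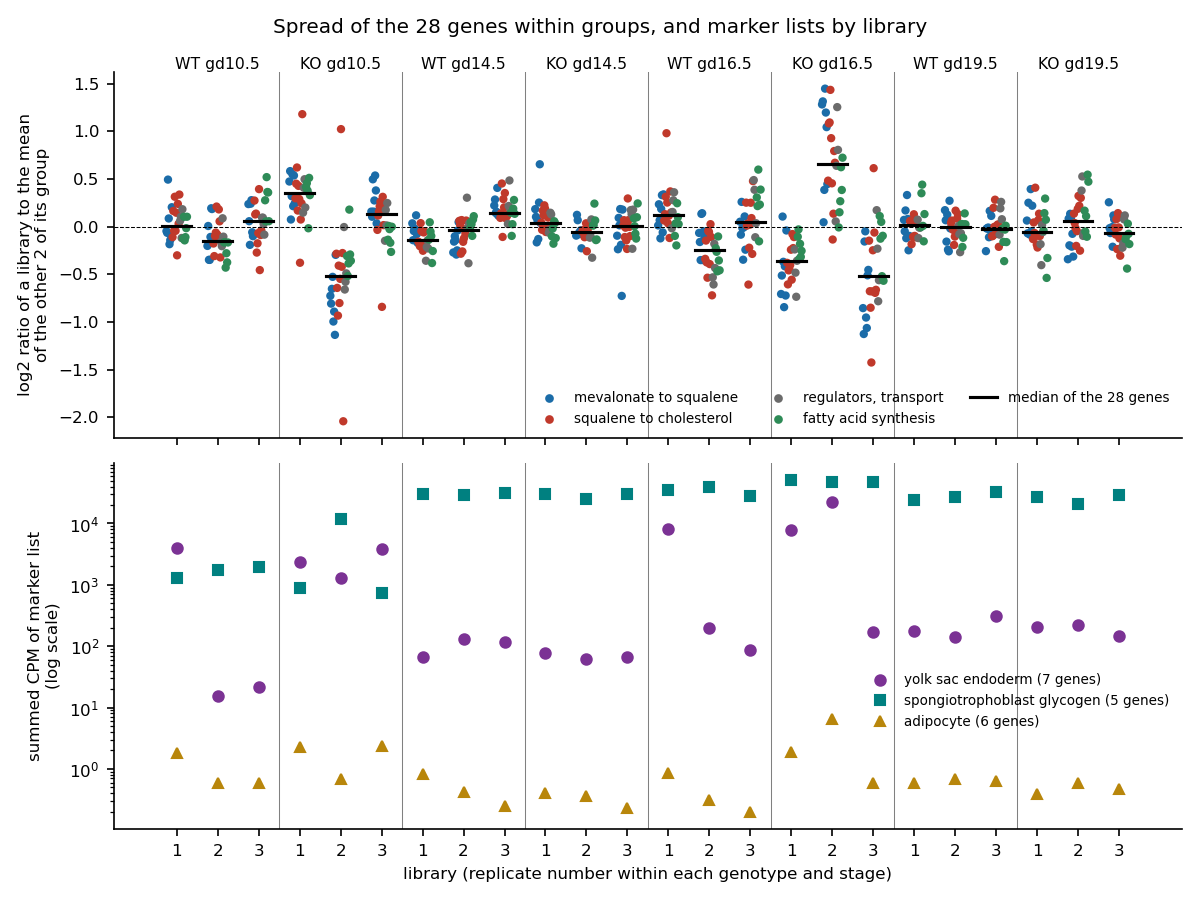
Top, log2 ratio of each of the 28 genes in a library to the mean of the other 2 libraries of its group, colored by role, with black bars at the median; bottom, summed CPM (log scale) of yolk sac endoderm, spongiotrophoblast and glycogen cell, and adipocyte marker genes in the same library. KO gd16.5 replicate 2 has a median of 0.66 and the highest yolk sac sum, and KO gd10.5 replicate 2 has a median of -0.52 and a spongiotrophoblast sum above the other gd10.5 libraries.

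The comparison of KO with WT at each stage asks what loss of *C1qtnf6* changes in the MFI, and no gene of this set passed the test. In edgeR, 0 of 28 genes passed at any stage, where 0.00572% of all genes passed on gd10.5, 0.0166% on gd14.5, 0.00586% on gd16.5 and 0.115% on gd19.5, with smallest adjusted p-values in the set of 1.00, 0.694, 0.433 and 0.245. Without adjustment, 0, 2, 3 and 5 of the 28 had a p under 0.05, where 0.801%, 6.78%, 11.1% and 13.5% of all genes did. DESeq2 called 0 of the 28 at each stage too, where it called 2 of 17480, 26 of 18024, 179 of 17071 and 202 of 17397 genes. With 3 libraries against 3, an exact permutation test cannot give a p under 0.1.

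Most of the differences were above 0 but small. Log2 fold changes were above 0 for 21, 22, 22 and 21 genes at the successive stages, with medians of 0.07, 0.085, 0.39 and 0.10, beside medians over all genes between -0.01 and 0.01. At gd16.5 this rested on KO replicate 2: without it, 14 genes were above 0 and the median was -0.002. At gd10.5 the count and median were 27 and 0.24 without KO replicate 2 but 12 and -0.03 without KO replicate 1, so the direction there also rested on single libraries. Over the single omissions the medians were 0.03 to 0.14 at gd14.5 and 0.07 to 0.13 at gd19.5. No omission brought any gene past the threshold.

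At gd16.5 the 2 highest values were 0.97 for *Idi1* (95% interval 0.02 to 1.92, edgeR adjusted p = 0.446) and 0.89 for *Tm7sf2* (95% interval -0.43 to 2.20). *Sc5d* differed by 0.63 (95% interval 0.06 to 1.2, adjusted p = 0.433 in edgeR and 0.198 in DESeq2). Without KO replicate 2 these were 0.37, 0.11 and 0.31. *Sc5d* in WT libraries was at 42.7, 34.4 and 31.5 CPM and in KO libraries at 50, 77.7 and 39.2 CPM, so the genotypes overlapped. At this stage 0 of 28 genes had groups that did not overlap, where 8.11% of all genes had every KO library above WT and 9.62% every one below. The count was also 0 at gd10.5 (1.83% above and 2.35% below), while at gd14.5 there were 2 above (6.42%) and 1 below (6.1%). The 95% interval of the KO effect lay within 1 log2 unit of 0 for 16 of the 28 genes at gd16.5, for 27 at gd10.5, and for 28 at both other stages.

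At gd19.5, where neither of the divergent libraries takes part, 7 of 28 genes had all KO libraries above all WT libraries and 0 had all below, where 12.8% and 8.55% of all genes did. They were *Scd1*, *Elovl6*, *Acly*, *Stard4*, *Srebf1*, *Hmgcs1* and *Sqle*. *Scd1* was at 30.7, 35.3 and 33.2 CPM in WT and at 36.1, 59.7 and 45.4 CPM in KO, which gave 0.49 on the log2 scale (SE 0.156, 95% interval 0.14 to 0.84, edgeR adjusted p = 0.245), with KO replicate 2 the highest and a value of 0.28 without it. *Elovl6* differed by 0.22 (95% interval 0.06 to 0.38, edgeR adjusted p = 0.258) and *Stard4* by 0.21 (95% interval 0.04 to 0.37, edgeR adjusted p = 0.288). Without the expression filter, *Scd1* (adjusted p = 7.58e-06) and *Srebf2* (adjusted p = 0.0160) passed, in a fit that called 675 genes in place of 20.

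Over the 4 stages, with stage in the model and 12 libraries of each genotype, 27 of 28 genes had a log2 fold change above 0, the exception being *Ebp* at -0.01. The median was 0.16, beside 0.01 over all genes. Still, 0 of 28 passed in edgeR (0.0155% of all genes did, smallest adjusted p in the set 0.569), and 7 of 28 had an unadjusted p under 0.05, where 6.34% of all genes did. By role, all 8 enzymes up to squalene, 9 of 10 after it, all 4 regulators and all 6 fatty acid genes were above 0. *Fdft1* had a log2 fold change of 0.24 (95% interval 0.09 to 0.38, edgeR adjusted p = 0.569) and *Scd1* one of 0.29 (95% interval 0.10 to 0.47, edgeR adjusted p = 0.625). The genes share libraries, so 27 upward values are not separate pieces of evidence. Without KO gd16.5 replicate 2 alone the count was 25 and the median 0.06, and without KO gd10.5 replicate 2 alone they were 27 and 0.205. Without both divergent libraries the count was 27, the median 0.11 and the smallest adjusted p 0.274.

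**Figure D5:**
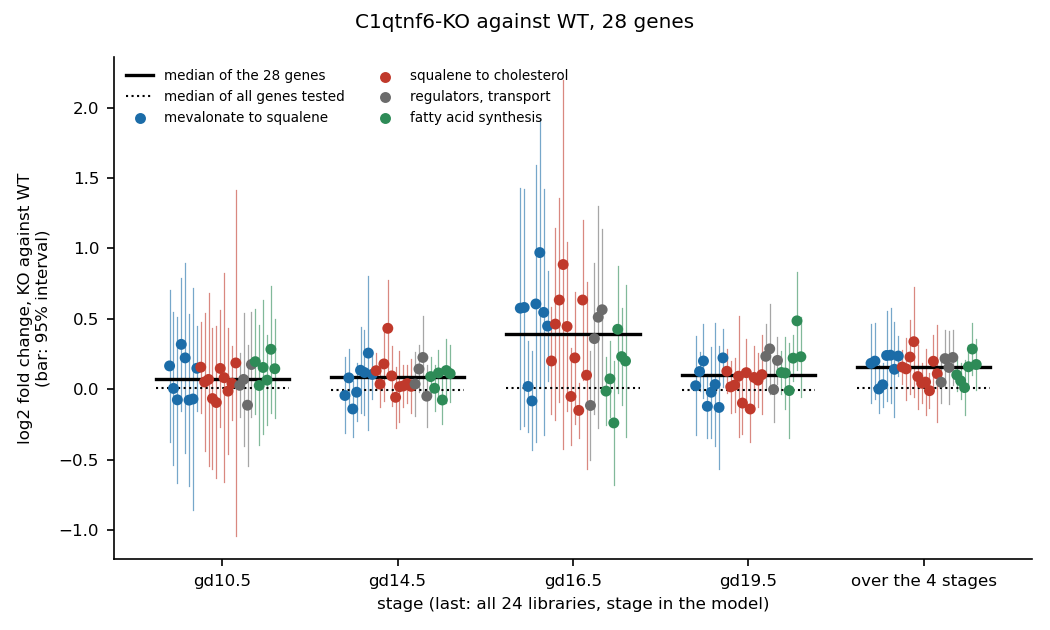
Log2 fold change of KO against WT (edgeR) for the 28 genes at each stage and over the 4 stages, colored by role, with 95% intervals as thin bars; solid lines are medians of the set and dotted lines medians of all genes tested. Medians of the set lie above the dotted lines, most at gd16.5 at 0.39, where the intervals are also wide.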

How the data were processed

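Bulk RNA of 24 MFI libraries, 3 per genotype and stage, was analysed from the deposited table of raw counts, which the authors made per gene. Per the labels and the study's methods, polyA libraries (TruSeq stranded mRNA, paired-end) were trimmed with Trim Galore 0.6.4, aligned to GRCm38 with STAR 2.7.3a, and counted with featureCounts of Subread 2.0.0 at default settings. Strand, reads shared by overlapping genes and near-identical copies can then affect counts, and the larger exon overlaps and copies (BLAST 2.17.0) are given beside the genes they touch. Groups were taken from the labels.

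Genes were kept by filterByExpr (minimum count 10, minimum total 15), scaled by TMM and tested with the quasi-likelihood F-test of edgeR 4.0.16 in R 4.3.3, two-sided, with Benjamini-Hochberg adjustment over all genes tested. A gene passed at an adjusted p under 0.05. KO was compared with WT within each stage and over the 4 stages with stage as a term, stages were compared within each genotype, and the interaction was tested over all 24 libraries, 14 comparisons in all. SE is the absolute log2 fold change divided by the square root of F. All 28 genes passed the filter in every fit. Total counts per library ran from 20975717 to 37383108, and limits from counts cover counting error only. Within groups, chi-square per degree of freedom between libraries was 8.68 to 188, above counting noise, so each library counted as 1 sample.

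Tested on simulated counts for KO against WT at gd16.5 (16837 genes), edgeR recovered 200 of 200 genes changed by 2 on the log2 scale, with 6 false calls. The simulation gave all genes the same fixed spread and changed only well-expressed genes. It therefore does not measure how often smaller changes would be found in the real libraries, whose spread differs by group. Alternatives were DESeq2 1.42.0, RLE scaling, other filters, 1 fit over all libraries, a fold threshold, a replicate block and leaving out each replicate. Omission of both divergent KO libraries together was chosen after seeing the data. The genes, gene lists and tests were chosen with earlier results of these data known. All 28 genes could be named, with values by library for the 3 per role that changed most between gd10.5 and gd19.5 in WT, and *Fdft1*, *Hsd17b7*, *Scd1*, *Scd2* and *Sc5d* were added after their values were seen. Values of some other genes of the pathway are not reported here.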

Additional observations from a re-analysis of the deposited data

How the results depend on the processing

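The fall between gd10.5 and gd19.5 was called for 24 to 25 genes in WT and 21 to 25 in KO when 1 replicate was left out. Between gd10.5 and gd14.5 the range was 24 to 26 in WT and 17 to 26 in KO, between gd14.5 and gd16.5 it was 6 to 11 in WT and 1 to 6 in KO, and between gd16.5 and gd19.5 it was 1 to 7 in WT and 0 to 5 in KO. KO against WT and the interaction gave 0 in each such fit. With a log2 fold change over 1 also required, the calls were 12, 1 and 0 for the successive WT intervals. Over all genes they were 4116, 1037 and 397, in place of 10360, 4153 and 1476. For the first KO intervals they were 12 and 1, and over all genes 3460 and 1391, in place of 8523 and 3226. With all 24 libraries in 1 fit, WT calls were 5 (gd14.5 to gd16.5) and 2 (gd16.5 to gd19.5), and over all genes 3494 and 896. For the KO interval from gd16.5 to gd19.5 that fit called 7, and 1154 of all genes in place of 229. For that last KO interval the count was 5 without the expression filter (717 of all genes), 6 in DESeq2 (1194) and 2 without both divergent libraries (612). For the KO interval before it the count was 11 without those libraries (3907 of all genes). Without the filter, 2 genes of the set passed for KO against WT at gd19.5, and 675 of all genes in place of 20. The cause of these shifts was not tested.

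Replicate numbers were not taken to pair the samples. Correlations of same-numbered deviations ran from -0.57 to 0.479 between WT and KO, and 6 of 12 were over 0.1. They were all above 0 at gd14.5 and gd19.5 but had both signs at gd10.5 and gd16.5, so pairing was not settled. With the replicate number as a block, calls were 9 in place of 10 (WT gd14.5 to gd16.5) and 5 in place of 6 (WT gd16.5 to gd19.5), and the block changed no other count. No gene called in the main comparisons changed sign under any alternative run. With 3 libraries per group, the KO intervals at gd16.5 reach past 1 log2 unit for 12 of the 28 genes. A change of that size is therefore not excluded there for those genes.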
